A study of Mus musculus with 15 samples.

Results

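The genes described here are 8 members of the machinery that takes a cell through G1: the D-type cyclins Ccnd1, Ccnd2 and Ccnd3, the cyclin E gene Ccne1, the kinase genes Cdk4 and Cdk6, the retinoblastoma gene Rb1 and the transcription factor gene E2f1. They were found in the deposited count table by their Entrez gene identifiers, and 8 of the 27179 genes in the table belong to the set. All 8 passed the filter on low counts. RNA was sequenced from sorted mouse epithelial cells that were positive for Epcam and negative for CD45 and CD31. Each mouse carried Lrig1-eGFP-IRES-CreERT2, a green fluorescent reporter driven by Lrig1, a receptor-like protein found on crypt progenitors, together with the APCmin allele, a truncating mutation of Apc that gives intestinal tumors. Both alleles are shared by every group, so the cells labelled normal come from APCmin mice too. The groups are Lrig1-low cells from normal epithelium (4 libraries, S01, S05, S09 and S13), Lrig1-high cells from normal epithelium (4 libraries, S02, S06, S10 and S14), Lrig1-low cells from tumors (3 libraries, S03, S07 and S11) and Lrig1-high cells from tumors (3 libraries, S04, S08 and S12). The labels give no age and tie no library to an animal, so p-values measure only the spread between these libraries, which may be technical.

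In G1, growth signals raise the D-type cyclins, which bind and switch on CDK4 and CDK6. These kinases phosphorylate the RB protein, which otherwise holds E2F factors in check, and the freed E2F factors turn on cyclin E and the genes of DNA replication. In the gut, Wnt signalling keeps crypt cells in this cycle, and Apc restrains that signal. Rb is controlled mostly by phosphorylation and the D-type cyclins partly by protein turnover, neither of which an RNA measurement sees.

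The 14 libraries used held 9508505 to 17296536 counts, and S15, a library also labelled tumor Lrig1-low, was set aside at 357 counts. From 12.9% to 42.8% of the counts fell on mitochondrial rRNA; S12 was highest and detected the fewest genes (11995). The Lrig1 gene itself checks the sort: it stood at 126.2 to 148.2 CPM (depth-scaled counts, here with TMM factors) in S02, S04, S06, S07 and S14 and at 36.4 to 85.5 CPM in the other 9 libraries. S07 and S09, labelled low, were above the other libraries of that label in normal or tumor tissue, and S08 and S10, labelled high, were below the other libraries of theirs. S12, labelled high, was at 72.6 CPM, among the 9 lower libraries and below S09, yet was kept when the others were left out. Directions are therefore given by the labels, and with and without S07, S08, S09 and S10. Epcam was at 604.7 to 1509 CPM in every library. Of the defining markers of other cells, the B cell gene Cd79a was at 0 in 13 of 14 libraries and the fibroblast gene Dcn in 12, while the leukocyte gene Ptprc reached 46.1 CPM in S08 and the endothelial gene Cdh5 154.9 CPM in S11. Pecam1, the gene of the sorted-out antigen CD31, was at 1.85 CPM or less in every library. Car1, a colonocyte gene, was at 0 in 12 of 14 libraries. Aqp8, also a colonocyte gene, was at 0 in 3 and at 4.93 CPM or less in the rest. Sis, a small intestinal brush border enzyme, was at 101.5 CPM or more in each, so the colon is named by the labels only.

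No member passed an adjusted p of 0.05 between any of the groups (edgeR quasi-likelihood test, Benjamini-Hochberg adjustment over 13883 genes). Over all 14 libraries, E2f1 spanned 12.3-fold between its lowest and highest library, Ccne1 7.74-fold, Cdk6 7.26-fold, Ccnd1 6.36-fold, Rb1 3.9-fold, Cdk4 3.21-fold, Ccnd3 3.13-fold and Ccnd2 2.04-fold. Per kilobase of counted exon, the median over the 14 libraries was highest for Ccnd2 (64.2 CPM per kilobase), followed by Cdk4 (45.3) and Ccnd1 (24.2). Rb1 stood at 8.95 CPM per kilobase, Ccnd3 at 6.62, Cdk6 at 6.17, Ccne1 at 3.29 and E2f1 at 1.72. Ccnd3 and Cdk6 are neighbours in this order whose ranges over libraries overlap. The counted exons do not reach both ends of the RefSeq gene for Ccnd2, Cdk4, Cdk6, Rb1 and E2f1, so their levels per length rest on part of the gene. The gap is widest for Cdk6, counted from 3344312 to 3522225 on chromosome 5 where RefSeq has 3341004 to 3531008. In bulk RNA, fewer cells with a transcript and less of it per cell cannot be told apart.

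**Figure D1:**
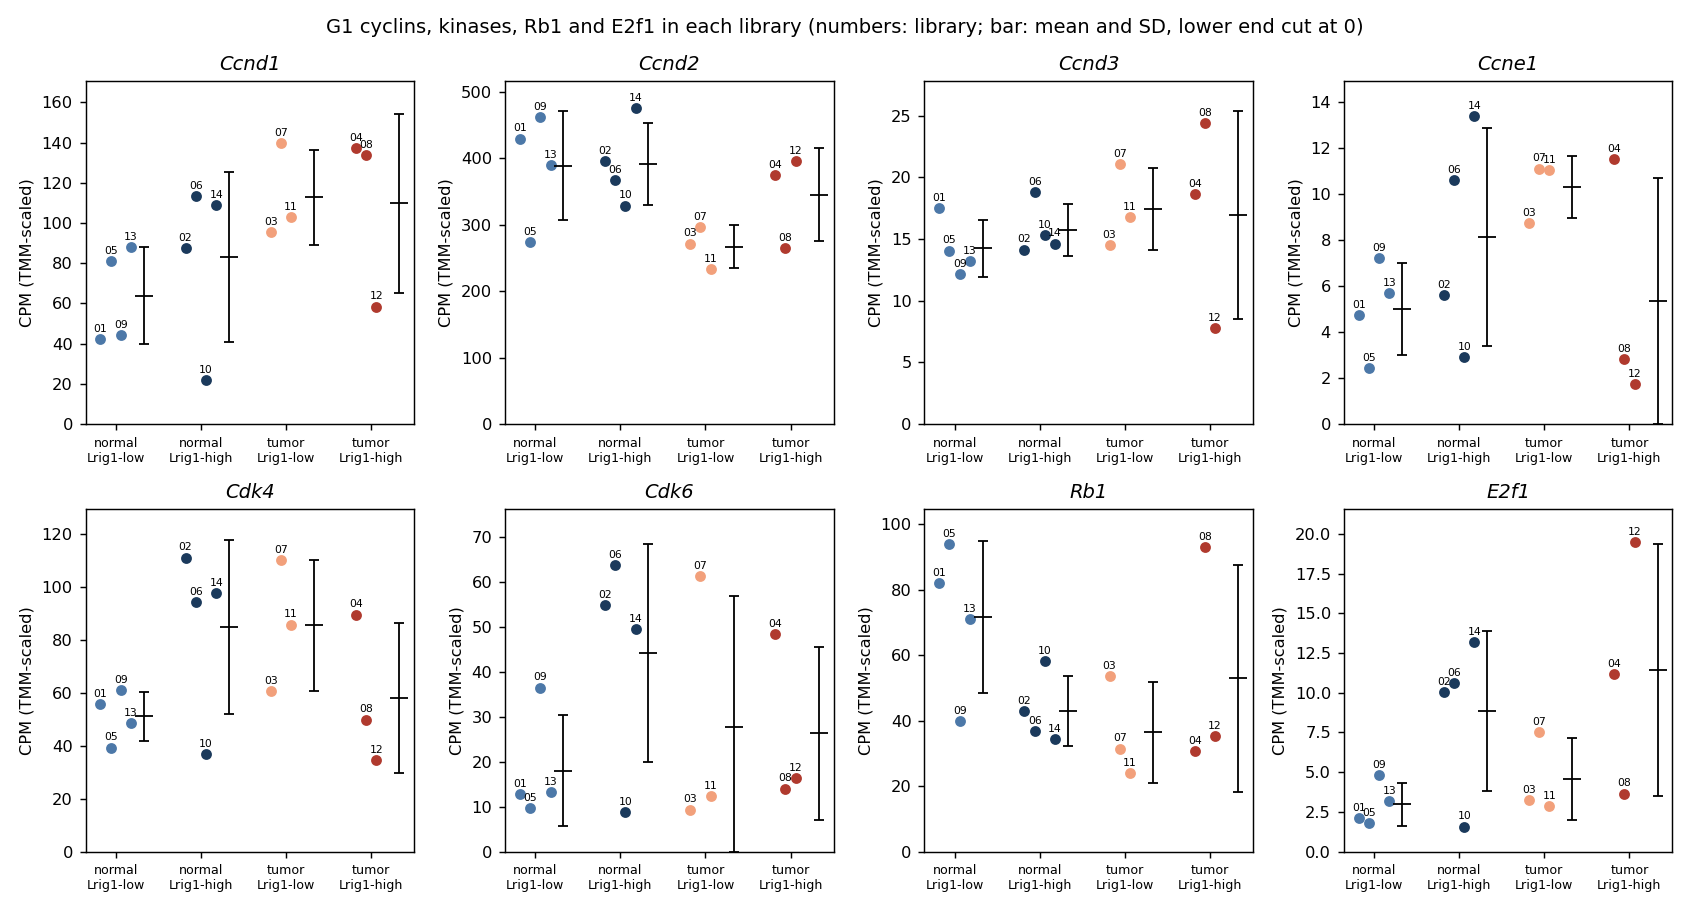
CPM of each of the 8 genes (vertical axes from 0) in each library, by group, with the library number above each point and the mean and SD of the group as a bar whose lower end stops at 0. Cdk6 is at 48.5 to 63.8 CPM in 5 libraries and at 36.5 CPM or less in 9, and 3 of the 4 groups hold libraries of both kinds.

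Ccnd1 (gene 12443, chromosome 7, 144929931 to 144939925, minus strand, mm10) encodes cyclin D1, the D-type cyclin most often tied to Wnt and growth factor signals. In normal Lrig1-low cells it was at 42.4, 81.2, 44.1 and 87.9 CPM in S01, S05, S09 and S13. In tumor Lrig1-low cells it was at 95.5, 139.6 and 103.0 CPM in S03, S07 and S11. The 3 tumor libraries all lay above the 4 normal ones in this fraction. The log2 fold change of tumor over normal was 0.82 ± 0.47 (SE), with an adjusted p of 0.508 in edgeR. In Lrig1-high cells the groups overlapped, at 87.6, 113.3, 21.9 and 108.9 CPM in the normal libraries S02, S06, S10 and S14 and at 137.1, 133.9 and 58.4 CPM in the tumor libraries S04, S08 and S12. There the log2 fold change was 0.41 ± 0.47 (adjusted p 0.729), and over both fractions it was 0.61 ± 0.33 (adjusted p 0.372). Over the order of all 14 libraries, the lowest Ccnd1 level was that of S10 and the highest that of S07, and 4 of the 5 lowest libraries were normal.

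Ccnd2 (gene 12444, chromosome 6, 127125708 to 127151048, minus strand) encodes cyclin D2 and was the most abundant member per length. In the Lrig1-low fraction it was at 429.5, 274.3, 461.3 and 389.2 CPM in normal S01, S05, S09 and S13. The tumor libraries S03, S07 and S11 of that fraction held 271.6, 296.2 and 233.0 CPM. S05 fell within the tumor range and the other 3 normal libraries were above it. The log2 fold change was -0.54 ± 0.24, with an unadjusted p of 0.0381 and an adjusted p of 0.322 in edgeR. In the Lrig1-high fraction the normal libraries S02, S06, S10 and S14 were at 395.8, 366.6, 328.6 and 474.8 CPM and the tumor libraries S04, S08 and S12 at 375.1, 265.2 and 395.6 CPM. These overlapped, with a log2 fold change of -0.18 ± 0.23 (adjusted p 0.756), and the mean of both fractions gave -0.36 ± 0.17 (adjusted p 0.281).

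Ccnd3 (gene 12445, chromosome 17, 47505051 to 47599689, plus strand), which encodes cyclin D3, was the lowest D-type cyclin per length in every library but S10, where Ccnd1 was lower. Its levels in normal Lrig1-low cells were 17.5, 14.1, 12.2 and 13.2 CPM, in library order. In normal Lrig1-high cells they were 14.1, 18.8, 15.3 and 14.6 CPM. The tumor Lrig1-low libraries held 14.5, 21.04 and 16.7 CPM and the tumor Lrig1-high libraries 18.6, 24.4 and 7.79 CPM. All groups overlapped, and its lowest library (S12) and its highest (S08) carried the same label. The 4 pairwise log2 fold changes lay between -0.04 and 0.29, each smaller than its SE.

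The make-up of D-type cyclin RNA does not depend on the scaling of a library. It was taken per length, as the share of each gene in the sum of the 3. Ccnd1 made up 20.3% ± 8.21 (SD, n = 8) in normal libraries and 32.5% ± 7.72 (SD, n = 6) in tumor libraries. The difference was 12.2 percentage points (exact two-sided permutation test within the fractions, p 0.022, adjusted over 4 shares 0.049). Ccnd2 made up 72.5% ± 7.97 in normal and 59.0% ± 10.3 in tumor libraries, a difference of -13.4 points (exact permutation p 0.0245, adjusted 0.049). The 3 shares add up to the whole, so these are not separate results. In Lrig1-low cells the Ccnd1 share was 11.97%, 28.5%, 11.99% and 24.01% in the normal libraries and 32.0%, 37.8% and 36.2% in the tumor libraries, without overlap. In Lrig1-high cells it was 23.6%, 29.4%, 8.32% and 24.4% in normal and 33.02%, 38.4% and 17.6% in tumor libraries, where S12 lay among the normal ones. The Ccnd3 share differed by 1.21 points (exact permutation p 0.328, adjusted 0.438).

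Both share differences passed by a small margin. The adjusted p went over 0.05 when any of 11 of the 14 libraries was left out (it stayed under without S05, S06 or S12), with differences of 10.1 to 15.2 points for Ccnd1 and -17.4 to -10.3 points for Ccnd2. S07, S08, S09 and S10 were also left out together, being the highest in Lrig1 of a low group or the lowest of a high one. The differences were then 6.08 and -6.34 points (exact permutation test, adjusted p 0.373 for each).

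**Figure D2:**
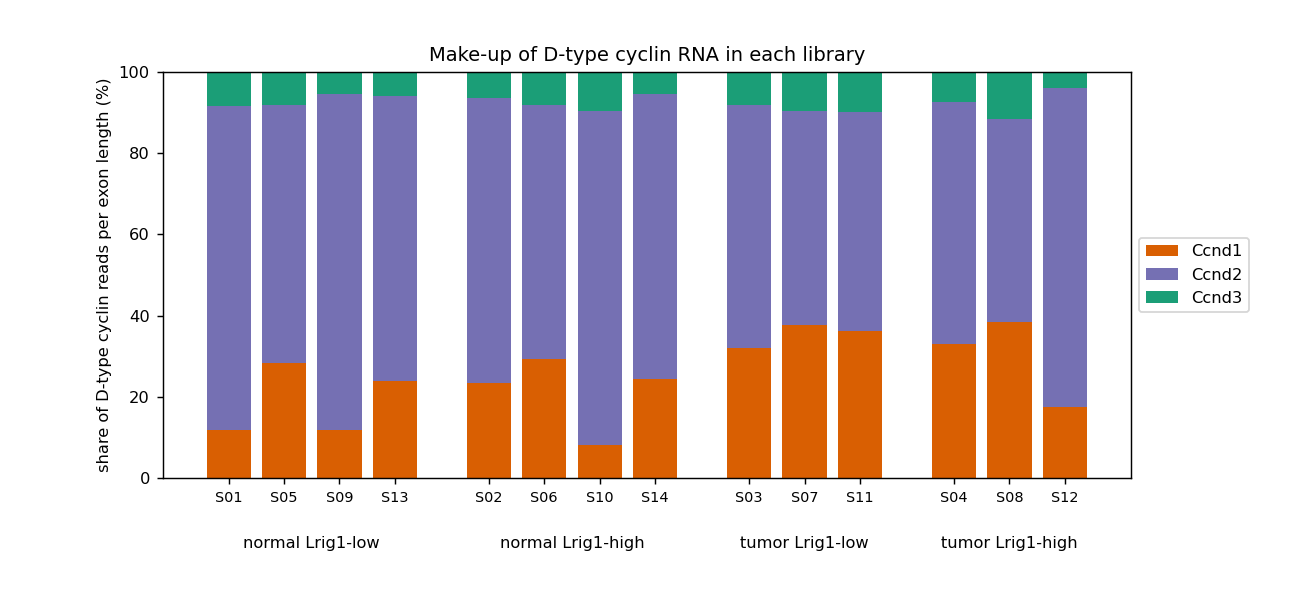
Share (%) of Ccnd1, Ccnd2 and Ccnd3 in the reads of the D-type cyclins per exon length, 1 stacked bar for each library, by group. The Ccnd1 share is 32.0% or more in 5 of the 6 tumor libraries and at most 29.4% in all 8 normal ones, and S12 stands at 17.6%.

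Ccne1 (gene 12447, chromosome 7, 38097984 to 38107490, minus strand) encodes cyclin E, the partner of CDK2 at the entry into S phase. It rested on few reads, 16 to 193 counts a library. In the Lrig1-low fraction the normal libraries S01, S05, S09 and S13 were at 4.73, 2.42, 7.198 and 5.68 CPM. The tumor libraries S03, S07 and S11 were at 8.73, 11.1 and 11.03 CPM, all above the normal ones. This gave a log2 fold change of 1.04 ± 0.66, with an adjusted p of 0.578 in edgeR. In the Lrig1-high fraction normal S02, S06, S10 and S14 were at 5.62, 10.6, 2.91 and 13.4 CPM and tumor S04, S08 and S12 at 11.5, 2.83 and 1.73 CPM. Here the tumor mean was the lower one (5.35 against 8.13 CPM), with overlap and a log2 fold change of -0.60 ± 0.68 (adjusted p 0.723). The test of the difference between the fractions gave -1.63 ± 0.95 on the log2 scale (adjusted p 0.715). With 1 library left out at a time these ran from -1.83 to -0.20 and from -2.86 to -1.19, both lowest without S04.

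Cdk4 (gene 12567, chromosome 10, 127063603 to 127067283, plus strand) encodes the D-cyclin kinase that was the more abundant of the pair per length in every library. The normal Lrig1-low libraries S01, S05, S09 and S13 were at 55.7, 39.4, 61.1 and 48.6 CPM. The normal Lrig1-high libraries S02, S06, S10 and S14 were at 111.2, 94.5, 37.0 and 97.7 CPM. Of the latter, 3 were above every Lrig1-low library and S10 was below them all. The tumor Lrig1-low libraries S03, S07 and S11 were at 60.8, 110.3 and 85.8 CPM and the tumor Lrig1-high libraries S04, S08 and S12 at 89.7, 49.9 and 34.6 CPM. Lrig1-high over Lrig1-low gave a log2 fold change of 0.73 ± 0.35 in normal tissue (edgeR, unadjusted p 0.0544, adjusted p 1) and -0.56 ± 0.40 in tumors (adjusted p 0.738). The test of the difference between tissues gave -1.29 ± 0.53 (unadjusted p 0.0294, adjusted p 0.685).

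Cdk6 (gene 12571, chromosome 5, 3344312 to 3522225, plus strand) encodes the second D-cyclin kinase, known for roles in blood cell and progenitor cycling. Every group held 1 library or more far from the rest. Normal Lrig1-high S02, S06 and S14 were at 54.8, 63.8 and 49.5 CPM and S10 at 8.79 CPM. Normal Lrig1-low S01, S05 and S13 were at 12.8, 9.66 and 13.3 CPM and S09 at 36.5 CPM. In tumors, S07 of the Lrig1-low label (61.3 CPM) and S04 of the Lrig1-high label (48.5 CPM) were high. The low tumor libraries were S03 and S11 at 9.36 and 12.4 CPM and S08 and S12 at 14.1 and 16.4 CPM. Group means were 44.2 ± 24.4 (SD, n = 4) in normal Lrig1-high and 18.1 ± 12.4 CPM (SD, n = 4) in normal Lrig1-low cells. On the log2 scale, high over low was 1.29 ± 0.71 in normal tissue (edgeR, adjusted p 1) and -0.07 ± 0.81 in tumors (adjusted p 0.987). As a share of Cdk4 plus Cdk6 per length, Cdk6 made up 7.28% to 26.9% over the libraries. That share differed by -1.89 points between tumor and normal libraries (exact permutation p 0.58, adjusted 0.58).

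The stretches before the start of Cdk4 and Cdk6 are shown because these members were higher in S02, S04, S06, S07 and S14 than in the other 9 libraries. For Cdk4 this was by a narrow margin. Lrig1 and Myc separate the same libraries, and the MYC protein binds the E-box CACGTG as a partner of MAX. Any part of Myc in the Cdk4 and Cdk6 levels was not tested. Myc was at 97.7 to 113.9 CPM in S02, S04, S06, S07 and S14 and at 16.6 to 85.6 CPM in the other 9 libraries. The windows are the 250 bases before the start used in the RefSeq promoter table (GRCm38.p6, plus strand, chr10:127063285-127063534 and chr5:3343643-3343892), with CACGTG in capitals. The Cdk4 window ends where its RefSeq gene begins, while the Cdk6 window lies inside its RefSeq gene, which begins at 3341004.
Cdk4: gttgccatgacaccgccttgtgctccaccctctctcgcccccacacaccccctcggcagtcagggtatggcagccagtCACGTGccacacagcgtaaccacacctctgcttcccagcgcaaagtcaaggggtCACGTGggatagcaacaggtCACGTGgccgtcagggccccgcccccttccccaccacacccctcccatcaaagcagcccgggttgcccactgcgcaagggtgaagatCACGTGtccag
Cdk6: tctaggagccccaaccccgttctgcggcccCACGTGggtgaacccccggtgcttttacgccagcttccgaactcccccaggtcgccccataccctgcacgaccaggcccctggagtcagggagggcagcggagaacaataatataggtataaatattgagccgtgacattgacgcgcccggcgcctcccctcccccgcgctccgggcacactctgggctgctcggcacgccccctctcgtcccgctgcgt
Cdk4 held the E-box 4 times, at 172, 118, 98 and 11 bases before that start, and Cdk6 held it once, at 220 bases. CACGTG reads the same on both strands. Of 32851 windows of this length in the RefSeq table, 6.02% held at least 1 and 0.0213% (7 windows) held 4 or more. The cutoff of 4 is the count of the Cdk4 window itself, and the E-box is 1 of several words searched. The share is therefore a description and no test. The TCF words CTTTGAT and CTTTGAA were searched on both strands, and Cdk4 held CTTTGAT once, at 52 bases. Either word was held by 7.48% of windows. Of the 8 members, 5 had a promoter window, with none for Ccnd1, Ccnd2 and Rb1. The windows of Ccnd3, Ccne1 and E2f1 held no E-box and no TCF word. No member window held any of 4 E2F words (TTTCCCGC, TTTGGCGC, TTTCGCGC and TTTGCCGC), which 1.86% of all windows held. The E2f1 window (chr2:154569427-154569676, minus strand) lies inside its RefSeq gene, which on that strand begins at 154569892. The bases before that start were not searched. The SP1 word GGGCGG was in every member window but that of Cdk6, and in 32.7% of all windows. A match is a description of letters, and binding was not measured.

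Rb1 (gene 19645, chromosome 14, 73195502 to 73325791, minus strand) encodes the pocket protein that holds E2F factors in check. Normal Lrig1-low S01, S05, S09 and S13 were at 82.1, 94.0, 40.0 and 71.1 CPM, and normal Lrig1-high S02, S06, S10 and S14 at 42.8, 36.7, 58.2 and 34.4 CPM. On the log2 scale, high over low was -0.74 ± 0.38 (edgeR, unadjusted p 0.0737, adjusted p 1). Tumor Lrig1-low S03, S07 and S11 were at 53.6, 31.5 and 24.1 CPM, which overlapped the normal Lrig1-low libraries through S09 alone. Tumor over normal gave a log2 fold change of -0.98 ± 0.42 there, with an unadjusted p of 0.0354 and an adjusted p of 0.311. Tumor Lrig1-high S04, S08 and S12 were at 30.7, 92.9 and 35.4 CPM. The log2 fold change of tumor over normal was 0.30 ± 0.41 in that fraction (adjusted p 0.769), and the test of the difference between the fractions gave 1.28 ± 0.58 (unadjusted p 0.0457, adjusted p 0.685).

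E2f1 (gene 13555, chromosome 2, 154559639 to 154569852, minus strand) encodes an activating E2F factor and is itself a known E2F target. It had the lowest median level per length, with 20 to 182 counts a library. Normal Lrig1-low S01, S05, S09 and S13 were at 2.12, 1.79, 4.82 and 3.19 CPM, and normal Lrig1-high S02, S06, S10 and S14 at 10.0, 10.6, 1.58 and 13.2 CPM. Here 3 of the Lrig1-high libraries were above all Lrig1-low ones and S10 below them all. Group means were 8.84 ± 5.04 (SD, n = 4) and 2.98 ± 1.36 CPM (SD, n = 4), a log2 fold change of 1.56 ± 0.67 (edgeR, unadjusted p 0.0366, adjusted p 1). In tumors, Lrig1-low S03, S07 and S11 were at 3.24, 7.53 and 2.89 CPM and Lrig1-high S04, S08 and S12 at 11.2, 3.65 and 19.5 CPM, with a log2 fold change of 1.32 ± 0.77 (adjusted p 0.700). S12, the library with the highest E2f1, held the lowest Ccne1, Cdk4 and Ccnd3, and the part of its RNA quality in these values was not tested.

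**Figure D3:**
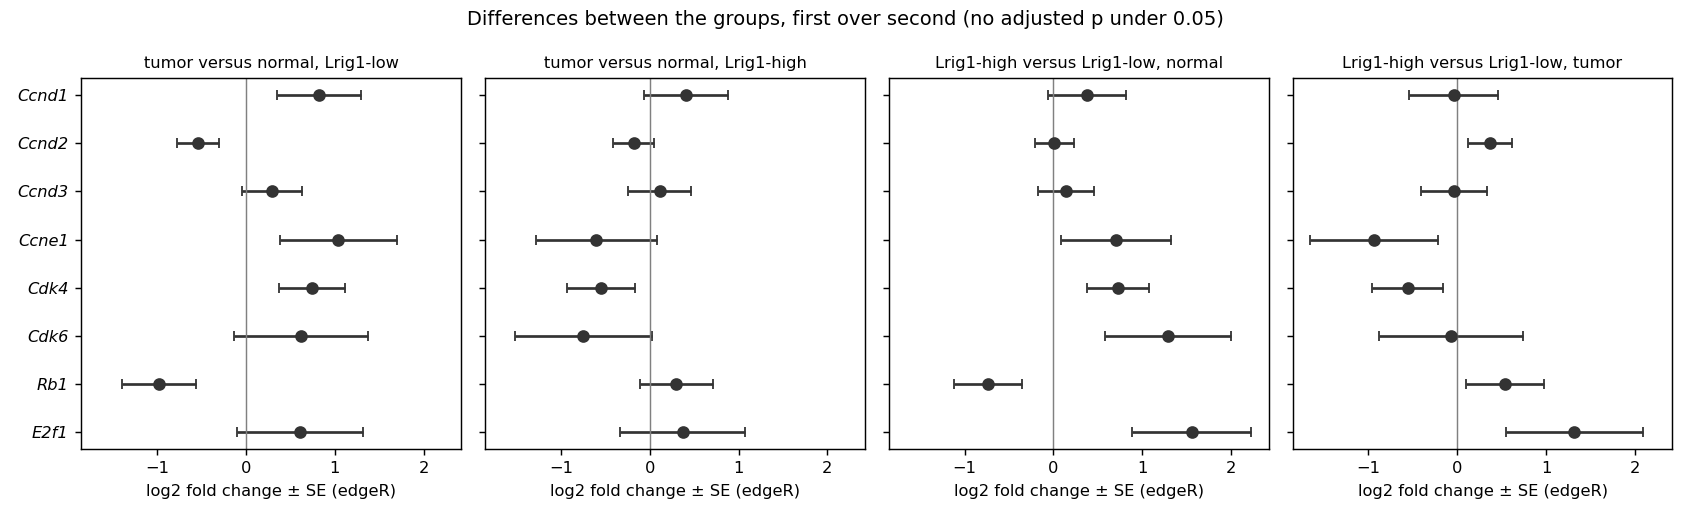
Log2 fold changes of the 8 genes with their SE (edgeR) in the 4 comparisons between groups, the first group named over the second. No adjusted p is under 0.05, and the points of Ccne1, Cdk4, Cdk6 and Rb1 for tumor over normal lie on opposite sides of 0 in the Lrig1-low and the Lrig1-high fraction.

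Tumor and normal cells were first compared within the Lrig1-low fraction, where 0 of 8 members and 0.331% of all genes passed in edgeR (DESeq2 called 0 of 8 as well). Ccnd1 and Ccne1 had all tumor libraries above all normal ones, 2 of 8, against 9.95% of all genes with higher tumor libraries and no overlap (18.3% in either direction). Of the 8, 6 had a positive log2 fold change (all genes 52%), with a median of 0.61 against 0.02 over all genes. Ccnd2 and Rb1 had an unadjusted p under 0.05, 2 of 8 against 14% of all genes. In the Lrig1-high fraction 0 of 8 members and 0% of all genes passed, no member was free of overlap (8.39% of all genes were), and no member had an unadjusted p under 0.05 (11.2% of all genes did). DESeq2 called 74 genes higher and 40 lower there, with 0 members. Of the 8, 4 were positive (47.4% of all genes), with a median of -0.03 against -0.04. The mean of both fractions gave 0 of 8 members, against 2.22% of all genes. Ccnd2 alone had an unadjusted p under 0.05 (0.0478; 17.4% of all genes did), no member was free of overlap (1.46% of all genes were), and 5 of 8 were positive (48.4% of all genes). The difference between the fractions passed for 0 of 8 members and 0% of all genes, and had an unadjusted p under 0.05 for Cdk4 and Rb1, 2 of 8 against 7.2%, and 2 of 8 were positive (45.4% of all genes). DESeq2 called 1 gene higher and 4 lower there, with 0 members.

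Lrig1-high and Lrig1-low cells were then compared within each tissue. In normal tissue 0 of 8 members and 0% of all genes passed in edgeR (DESeq2 called 1 gene and 0 members). E2f1 alone had an unadjusted p under 0.05, against 3.59% of all genes, and no member was free of overlap, against 2.84% of all genes. Positive log2 fold changes were found for 7 of 8 members (51.2% of all genes), the exception being Rb1, with a median of 0.54 against 0.01. With limma-voom and sample weights, 2057 genes were called higher and 2112 lower of the 13883 tested. Of the 8 members, 4 passed there: Cdk4 (log2 fold change 0.99, adjusted p 0.00453), Cdk6 (1.92, 0.00664), E2f1 (1.92, 0.00888) and Rb1 (-0.93, 0.00878). S07 and S09 had the highest Lrig1 of their low group, and S08 and S10 the lowest of their high group. Without these 4 libraries, edgeR called 474 genes higher and 322 lower. Among the genes called were Cdk6 (2.25 ± 0.38, adjusted p 0.0134) and E2f1 (2.26 ± 0.43, adjusted p 0.0196). Cdk4 was at 1.09 (adjusted p 0.0833) and Rb1 at -1.10 (adjusted p 0.0567). Those 4 libraries were chosen by RNA levels that move with these genes, so the p-values of that fit are too small. In tumors 0 of 8 members and 0% of all genes passed, none was free of overlap (7.46% of all genes were), no member had an unadjusted p under 0.05 (7.51% of all genes did), and 3 of 8 were positive (45.7% of all genes), with a median of -0.04 against -0.06. DESeq2 called 6 genes higher and 16 lower there, with 0 members. Without the 4 libraries, which leaves 2 libraries in each tumor group, E2f1 was at 2.37 ± 0.52 (adjusted p 0.0962) and Cdk6 at 1.65 ± 0.46 (adjusted p 0.14). That fit called 45 genes higher and 3 lower. Its Lrig1-high libraries were S04 and S12. S12 had the highest E2f1 of all libraries (19.5 CPM) and the highest share of mitochondrial rRNA (42.8%).

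The members were set beside a list of 30 genes of S phase entry that E2F factors are known to drive, such as the replication helicase genes Mcm3 and Mcm6. The list level, the mean of log2(CPM + 1), was split at its widest gap that left several libraries on each side. The upper set, S02, S04, S06, S07 and S14, was at 5.41 to 5.74, and the other 9 libraries were at 3.24 to 4.86. A wider gap set S10 (3.245) apart from S05 (3.833), and S09 (4.864) lay well above the next library below (4.395 in S03). The 2 sets thus depend on where the cut was made. Cdk4 (89.7 to 111.2 against 34.6 to 85.8 CPM) and Cdk6 (48.5 to 63.8 against 8.79 to 36.5 CPM) separated the sets, as Lrig1 did. For Cdk4 the margin was a ratio of 1.04 (S04 over S11), and its widest break, 1.41, lay between S09 and S11. The share of all genes that separate the same libraries was not computed, so the separation is not read as particular to these members. E2f1 did so apart from S12, at 7.53 to 13.2 against 1.58 to 19.5 CPM. Rb1 lay at 30.7 to 42.8 CPM in the 5 libraries and spanned 24.1 to 94.0 CPM in the rest. Ccnd1, Ccnd2, Ccnd3 and Ccne1 overlapped between the sets. The sets were read from these data and are no groups of the study. No test between them is therefore given, and no correlation with the list over libraries of both sets. Within the 9 lower libraries, no member's relation to the list passed the adjustment over 8 members. The highest Pearson r there was that of Cdk6, at 0.75 (exact permutation p 0.0443, adjusted 0.354), with a Spearman rho of 0.43 (exact permutation p 0.25, adjusted 0.4). Without S09 and S10, the 2 libraries farthest from the median list level of the 9, r was 0.23 (exact permutation p 0.618), so the relation rests on those libraries.

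Among the cell type marker lists, only that of stem cells separated the same sets by its summed CPM, and the others overlapped. The stem cell list, 9 genes that include Lgr5 and Olfm4, summed to 5848 to 7985 CPM in the 5 libraries and 390.5 to 4672 CPM in the 9. The Paneth cell list of 6 genes summed to 1543 to 11190 CPM against 56.3 to 3428 CPM, and the absorptive cell list of 11 genes to 902.8 to 1524 CPM against 1458 to 7263 CPM, both with overlap. The mitosis list of 20 genes stood at 6.26 to 7.02 against 4.15 to 6.08, as mean log2(CPM + 1). Its highest value is that of S14, raised by the list gene Nusap1, which had 148334 counts there and 1859 or fewer in the other libraries. The part of any of these cell types in the levels of Cdk4, Cdk6, E2f1 and Rb1 was not tested.

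**Figure D4:**
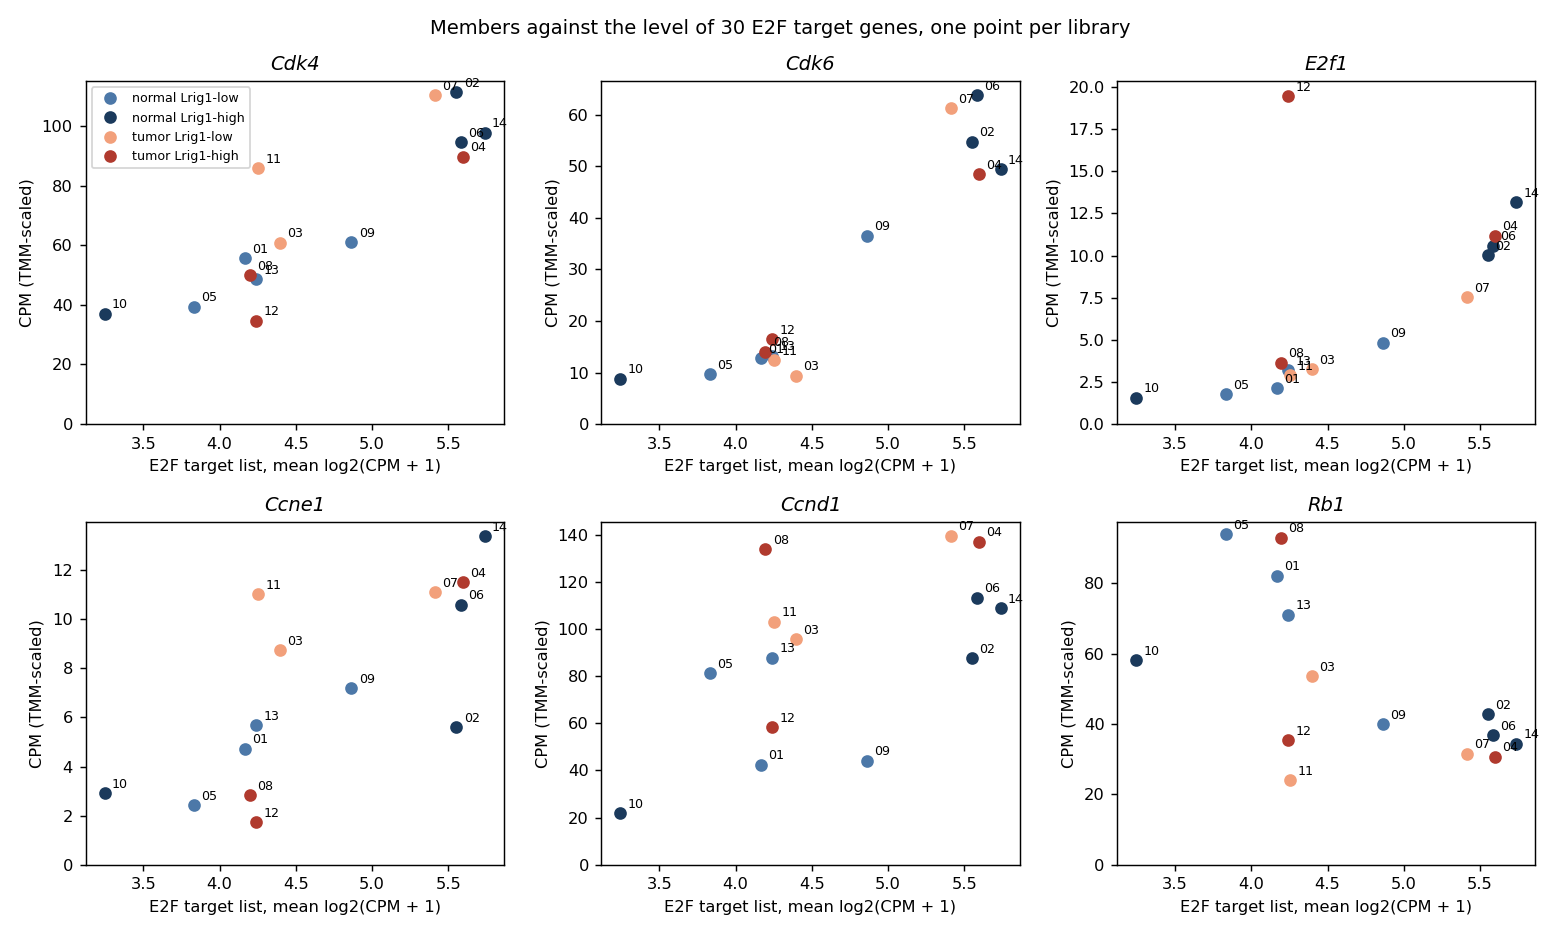
CPM of 6 members (vertical axes) against the mean log2(CPM + 1) of 30 E2F target genes (horizontal axes), 1 numbered point for each library, coloured by group. The 5 libraries at 5.41 or more hold Cdk6 levels of 48.5 to 63.8 CPM, and S12 stands apart with E2f1 at 19.5 CPM.

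The rest of the pathway was read from lists chosen for G1 control. Of the 30 E2F targets, 0 passed in edgeR in any comparison. All 30 were positive for Lrig1-high against Lrig1-low cells in normal tissue, with a median of 1.04, against 15 of 30 and 0.04 in tumors. Mcm6 was at 1.11 ± 0.58 and Mcm3 at 1.18 ± 0.61 in normal tissue (adjusted p 1 for both). Of 20 mitosis genes 0 passed, 20 were positive in normal tissue with a median of 0.89 and 12 in tumors with a median of 0.08, and the proliferation marker Mki67 was at 0.78 ± 0.54 in normal tissue. These 2 lists and the members share their libraries, so their like direction is not independent.

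Among 7 inhibitors of the G1 kinases, 6 were tested, Cdkn2a being too low. Cdkn1c, which encodes the inhibitor p57, was higher in tumor than in normal libraries, at a mean of 29.4 against 6.81 CPM (log2 fold change 2.11 ± 0.49, adjusted p 0.0431 in edgeR, mean of both fractions). The tumor libraries S03, S04, S07, S08, S11 and S12 held 21.7, 8.56, 6.09, 26.1, 68.7 and 45.4 CPM and the normal ones 4.23 to 11.01 CPM, with overlap. The call was lost when any of 11 of the 14 libraries was left out (it stayed without S04, S07 or S10), with a log2 fold change of 1.5 to 2.35. It was also lost with limma-voom (1.54, adjusted p 0.0806) and with neighbouring library numbers as a block (1.76, adjusted p 0.141). The other 5 inhibitors did not pass. Cdkn2b, an inhibitor of CDK4 and CDK6, was at -0.92 ± 0.53 in the same comparison (adjusted p 0.411), and Cdkn1b, the inhibitor p27, at -0.25 ± 0.17 (adjusted p 0.508).

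No gene passed in any comparison among the 10 other cyclins and kinases of the G1/S step, the 11 other pocket protein, E2F and DP genes and the 12 genes of G1 cyclin turnover. In normal tissue the cyclin A gene Ccna2 was at 0.68 ± 0.48 for Lrig1-high over Lrig1-low and the phosphatase gene Cdc25a at -0.06 ± 0.27. E2f4, a repressive E2F, was at 0.23 ± 0.16 and Tfdp2, a DP partner of E2F, at 0.11 ± 0.18, with an adjusted p of 1 for all 4 in edgeR. Of the turnover genes, Ddb1 was at 0.27 ± 0.19 for tumor over normal in Lrig1-low cells (adjusted p 0.626). Cul1, the scaffold of the SCF ubiquitin ligase, was at 4.49 ± 1.07 there (adjusted p 0.0738), a value set by S03, which held 4592 CPM against 52.9 to 89.8 CPM in the other 13 libraries.

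Of 19 Wnt target genes, 2 passed for tumor over normal in Lrig1-low cells and 5 over both fractions. All 19 had a positive log2 fold change of tumor over normal in the former comparison, with a median of 3.07. Cd44, a surface receptor for hyaluronan, was higher in tumor Lrig1-low cells (241.7 against 28.8 CPM, 3.07 ± 0.44, adjusted p 0.0106), and so was the transcription factor gene Sp5 (34.7 against 3.25 CPM, 3.41 ± 0.60, adjusted p 0.0337). Leaving out S01, S05, S11 or S13 ended both calls (adjusted p 0.0636 to 0.222), and that of Sp5 was also lost without S02 (0.0566) and in a fit of only the groups compared (0.0572). Over both fractions 5 of the 19 passed, led by Cd44 (2.07 ± 0.30, adjusted p 0.00618), which kept an adjusted p of 0.0281 or less in all 22 alternatives, Sp5 (2.15 ± 0.41, adjusted p 0.0256) and Wif1 (4.47 ± 0.95, adjusted p 0.0335). The other 2 were Lef1 and Dkk2. The call of Sp5 over both fractions was lost without S01, S02, S05, S11, S13 or S14 (adjusted p up to 0.0843), and that of Wif1 without any of these or S06 or S12 (up to 0.109) and with limma-voom (0.0785). Against these, the log2 fold change of the D-type cyclin gene Ccnd1 over both fractions was 0.61 ± 0.33 in the same fit. The endothelial list, of which Cdh5 is a member, reached its highest sum (216.2 CPM, against 2.17 to 58.6 CPM in the other 13 libraries) in S11, although the sort was negative for CD31 and Pecam1 was at 0.528 CPM in tumor and 0.765 CPM in normal Lrig1-low cells. The fibroblast list was also highest in S11 (122 CPM, against 9.95 to 33.5 CPM elsewhere). The part of either in the tumor values was not tested.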

How the data were processed

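RNA from sorted epithelial cells was sequenced from both ends after a stranded low-input total RNA kit, per the labels' protocols. The authors deposited raw counts, which featureCounts 1.5.3 summed over the exons of each mm10 gene, per the file headers. The deposited table also gives each gene's exon length in bases, used for levels per kilobase. Trimmomatic, HISAT2, Subread and mm10 are named in the submitters' processing notes. Entrez identifiers were matched to the RefSeq table (GRCm38.p6), which gave a symbol for 25275 of 27179 genes, and promoter windows came from RefSeq on the same build.

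Groups came from the sample titles. edgeR 4.0.16 (R 4.3.3) was fitted once to 14 libraries, with TMM scaling, filterByExpr (13883 genes), a coefficient for each group, quasi-likelihood tests and p-values adjusted by Benjamini-Hochberg over those genes; calls are at an adjusted p under 0.05. The SE was derived from the log2 fold change and its F statistic. CPM came from edgeR with TMM factors. Shares were tested with exact permutation (scipy 1.17.1). The fit was tested on simulated data. Alternatives were DESeq2 1.42.0, its size factors in edgeR, other filters, only the groups compared, limma-voom (limma 3.58.1) with sample weights, sets of 4 neighbouring library numbers as a block, S15 included, and each library left out. Leaving out S07, S08, S09 and S10, and the correlations within the 9 libraries of lower E2F target level (with and without the 2 farthest from their median), were added after seeing the data.

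Members and lists were chosen with earlier results of these data known. All 8 members are named, and from each list up to 3 genes a direction past the threshold by smallest adjusted p, or the 2 with the highest mean where none passed. Planned correlations with the list were run over 14 libraries, within the 8 normal and the 6 tumor libraries, and without the 2 libraries farthest from the median. They are not reported because the list level was split into an upper and a lower set of libraries and each of these correlations spans both. Marker lists covered stem, absorptive, goblet, Paneth, enteroendocrine, tuft, leukocyte, fibroblast, endothelial and epithelial genes.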

Additional observations from a re-analysis of the deposited data

Results flagged for a closer look

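In the normal Lrig1-low group, Cdk6 was at 36.5 CPM in S09 and at 9.66 to 13.3 CPM in the other 3 libraries. The gap to the nearest library was 0.865 of the range of the group, above Dixon's critical value for 4 samples. The 8 members were tested in the 2 groups of 4 libraries, 16 tests in all, of which chance flags about 1 in 20, and this was the 1 that passed. S09 was also the library of its group with the highest Lrig1 (85.5 CPM against 45.3 to 54.0 CPM) and the highest E2F target level (4.86 against 3.83 to 4.24, mean log2(CPM + 1)).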

How the results depend on the processing

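Of 1088 recomputed log2 fold changes of the 8 members (48 results), 1033 kept their sign and their side of the threshold, 6 passed the threshold newly and 49 changed sign, none of which was called; the cause was not tested. DESeq2 called 545 genes higher and 161 lower for tumor over normal in Lrig1-low cells, 74 and 40 in Lrig1-high cells, 750 and 310 over both fractions, 6 and 16 for Lrig1-high over Lrig1-low in tumors, 1 higher in normal tissue, and 1 higher and 4 lower for the interaction. For tumor over normal in Lrig1-low cells (43 higher, 3 lower), DESeq2 size factors gave 66 higher, no filter 65 higher, 1 CPM in 4 libraries 81 and 5, only the groups compared 7 lower, and S15 included 90 higher. limma-voom with sample weights gave 1060 and 329 there, 2057 and 2112 for Lrig1-high over Lrig1-low in normal tissue and 498 higher over both fractions. The block of consecutive library numbers, a replicate block the labels do not state as a batch, gave 90 and 5 in Lrig1-low cells, 1 higher in Lrig1-high cells, and 143 and 22 over both fractions (253 and 55 without it), with 0 members called. Without S07, S08, S09 and S10 the counts were 432 and 20 (Lrig1-low), 12 higher (Lrig1-high), 474 and 322 (normal tissue), 45 and 3 (tumors) and 611 higher (both fractions), and the share differences were 6.08 points for Ccnd1 and -6.34 for Ccnd2.

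Sign changes of tumor over normal in Lrig1-low cells were those of Cdk6 with limma-voom (-0.10) and without the 4 libraries (-0.15). In Lrig1-high cells they were those of E2f1 with limma-voom (-0.37), Ccnd3 with the block (-0.01), and, without the 4 libraries, Ccnd1 (-0.05), Ccnd3 (-0.23) and Rb1 (-0.18). For Lrig1-high over Lrig1-low in tumors, limma-voom gave 0.35 for Ccnd1, 0.32 for Ccnd3 and 1.20 for Cdk6, the block 0.10 for Cdk6, S15 included 0.06 for Ccnd1 and 0.01 for Ccnd3, and leaving out the 4 libraries 0.04 for Ccnd1, 1.65 for Cdk6 and -0.19 for Rb1. Over both fractions limma-voom gave -0.01 for Cdk4, and leaving out the 4 libraries -0.09 for Ccnd3 and -0.04 for Cdk4. For the interaction, limma-voom gave 0.20 for Ccnd3 and leaving out the 4 libraries 0.11 for E2f1.

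Leaving out 1 library at a time, the counts ran from 0 to 226 higher and 0 to 59 lower (tumor over normal, Lrig1-low), 0 to 263 and 0 to 544 (Lrig1-high), 31 to 541 and 3 to 519 (both fractions), 0 to 41 and 0 to 324 (Lrig1-high over Lrig1-low, tumors) and 0 to 7 and 0 to 150 (interaction). The share difference ran from 10.1 to 15.2 points for Ccnd1 and from -17.4 to -10.3 for Ccnd2. Log2 fold changes that crossed 0 ran from -0.74 to 1.21 for Cdk6 in tumor over normal, Lrig1-low. In Lrig1-high cells they ran from -0.25 to 0.42 for Ccnd3, -0.38 to 0.57 for Rb1 and -0.27 to 0.79 for E2f1. Over both fractions they ran from -0.40 to 0.40 for Ccne1, -0.14 to 0.20 for Cdk4 and -0.74 to 0.22 for Cdk6. For Lrig1-high over Lrig1-low they ran from -0.11 to 0.13 for Ccnd2 in normal tissue, and in tumors from -0.23 to 0.29 for Ccnd1, -0.39 to 0.33 for Ccnd3, -0.86 to 1.28 for Cdk6 and -0.14 to 0.95 for Rb1. For the interaction they ran from -0.54 to 0.17 for Ccnd3 and -0.85 to 0.33 for E2f1. On plain totals, 2 of 32 group means moved by more than 1 SD, Ccnd2 to 299.9 CPM and Ccne1 to 11.7 CPM in tumor Lrig1-low cells. Ccne1 and E2f1, at 16 to 193 counts a library, are the members whose depth limits precision most.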

Other observations

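The genes whose levels were most like those of each member over the 14 libraries were ranked by Pearson r of log2(CPM + 1) among 8572 genes with a symbol other than a placeholder name and a mean of at least 10 CPM. The points share library and depth and span both sets of libraries split by E2F target level, so the values are a description. Cdk6 was most like Dnmt1, the maintenance DNA methyltransferase, and Lrig1 (r 0.97 for both). Cdk4 was most like the chromatin gene Ssrp1 and the replication gene Gins2 (0.96 for both), which is itself in the E2F target list. E2f1 was most like Nup205 (0.98) and Zwilch (0.97), Rb1 most like Apol10a and Specc1l (0.96 for both), and Ccne1 most like Slain1 (0.95) and Mbd3 (0.94). The D-type cyclins had other nearest genes, Cttnbp2nl (0.92) and Wnk1 (0.89) for Ccnd1, Mrps9 (0.91) and Lipg (0.89) for Ccnd2, and Ap2b1 (0.91) and Cnp (0.90) for Ccnd3. Spearman rho was lower for pairs such as Cdk6 with Dnmt1 (0.83), Cdk6 with Lrig1 (0.89) and Ccnd3 with Ap2b1 (0.66). It was higher than r only for Ccnd2, with Mrps9 (0.96) and Lipg (0.93).

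Single libraries held extreme values of genes near the G1 machinery, picked after their values were seen. Cul1 had 65224 counts in S03 and 489 to 1220 in the others. Nusap1, a spindle gene, had 148334 counts in S14 and 120 to 1859 in the others. Cdkn1a, which encodes the kinase inhibitor p21, had 0 counts in S12, which allows up to 0.324 CPM at 3 counts, and 119 to 1102 counts in the other 13 libraries. Of the members, S12 held the highest E2f1 level (19.5 CPM, 180 counts) and the fewest counts of Ccne1 (16), Ccnd3 (72) and Cdk4 (320).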
